A study of Mus musculus with 6 samples.

Results

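The oxidative phosphorylation subunit genes are the nuclear genes for the protein parts of the 5 complexes of the mitochondrial inner membrane that turn the oxidation of nutrients into ATP. Members were taken by gene symbol, as the genes of the Ndufa, Ndufb, Ndufc, Ndufs and Ndufv families without the Ndufaf assembly factors, Sdha to Sdhd, the Uqcr genes, the genes of the Cox4 to Cox8 families and the Atp5 genes. This gave 84 of the 17256 genes in the deposited table, namely 40 of complex I, 4 of complex II, 8 of complex III, 15 of complex IV and 17 of complex V. Of these, 81 passed the expression filter and were tested. The other 3 were Cox6b2, Cox8b and Ndufb4b. The subunits encoded in the mitochondrial genome, and family members not in the table, were not analysed here.

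RNA was sequenced from the epithelium of the antrum, the distal stomach, of C57BL/6 mice. All animals had first been made gastritic over 20 weeks with MNNG, an alkylating agent that acts as a gastric carcinogen, and a drug that the labels write as Ranitine. The PEEPA-P5 group (3 libraries) then received PEEPA-P5, known here only by that code name, by gavage for 2 weeks, and the vehicle group (3 libraries) received vehicle for 2 weeks. There was no untreated group, and the labels do not tell whether each library is a different mouse. The p-values therefore measure the spread between libraries, which may be technical.

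Complex I takes electrons from NADH and complex II from succinate. Complex III passes them on to cytochrome c, and complex IV, cytochrome c oxidase, to oxygen. Complexes I, III and IV pump protons, and complex V, the ATP synthase, uses the proton gradient to make ATP. In the stomach, the acid-secreting parietal cell is known for its dense packing with mitochondria, which feed the proton pump. Pit cells, which line the surface, and the mucous gland cells are the main epithelial cells of the antrum.

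Total counts were 16388844 to 16903545 per library, and the trefoil peptide gene Tff1 took 20.8% to 28.6% of the TPM of a library, a unit that scales reads to transcript length and to a fixed sum per library. Pit cell genes were plentiful. The 13 listed summed to 165900 to 204400 CPM (counts scaled to library size) with PEEPA-P5, against 130600 to 152900 CPM with vehicle. The libraries stood apart in other cell types. Over 15 parietal cell genes, the mean deviation on the log2 scale from the average of the 6 libraries was -2.21, 0.28 and -3.02 in PEEPA-P5 1, 2 and 3, against 0.34, 1.72 and 2.89 in vehicle 1, 2 and 3. PEEPA-P5 3 was the lowest library for endothelium (-2.07), fibroblast (-2.40), smooth muscle (-2.24) and enteroendocrine genes (-2.45). In such bulk samples, fewer cells of a type and less RNA per cell cannot be told apart.

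Oxidative phosphorylation transcripts are steady, abundant messages in this tissue. In TPM the members together took 3.52%, 3.48% and 3.28% of the transcripts in PEEPA-P5 1, 2 and 3, against 3.39%, 3.49% and 3.5% in vehicle 1, 2 and 3. As a share of all counts they took 1.54%, 1.52% and 1.44% with PEEPA-P5, against 1.48%, 1.54% and 1.58% with vehicle. The groups overlap on both scales, and PEEPA-P5 3 has the lowest share on both.

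The complexes differed in level per gene. The median level of the tested members, as mean TPM over the 6 libraries, was 151 for complex I, 167 for complex II, 398 for complex III, 707 for complex IV and 608 for complex V. In complex I, counted by gene symbol and so with Ndufa4 and Ndufa4l2, the level ran from 0.832 to 992.5 TPM. The lowest was Ndufa4l2, a hypoxia-responsive relative of Ndufa4, and the highest the small accessory subunit Ndufa3. Apart from Ndufa4l2, the lowest tested was Ndufa11 at 32.4 TPM. Complex II ran from Sdha at 82.1 to Sdhc at 236 TPM, and complex III from Uqcrq at 115 to Uqcr10 at 977 TPM, both of these small accessory subunits. Complex IV ran from Cox4i2 at 1.16 to Cox8a at 1952 TPM among tested genes, and complex V from Atp5pb at 199.7 to Atp5md at 1357 TPM. Many of the highest levels belong to very short transcripts, for which a value per length is least certain: the effective length implied by the deposited values was 101 bases for Ndufa3 and 111 bases for Atp5md.

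**Figure D1:**
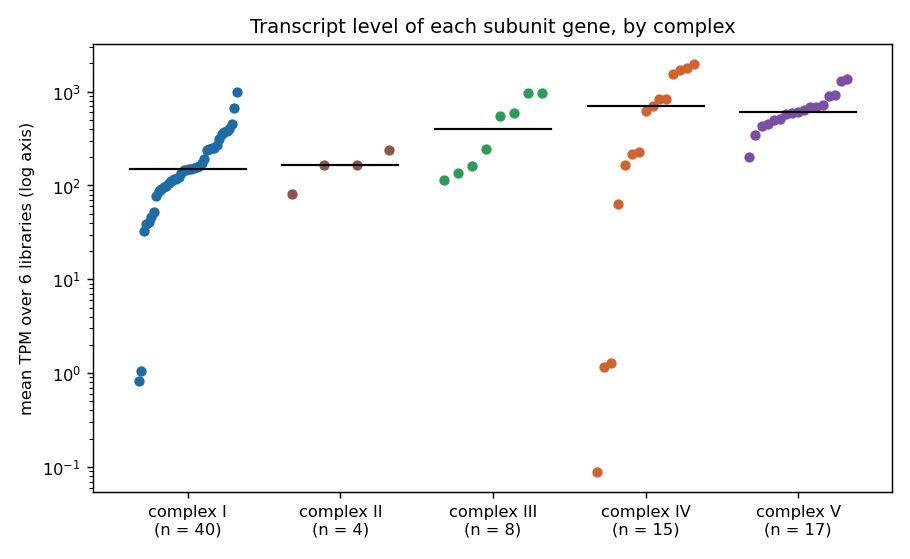
Mean level in TPM over the 6 libraries (vertical log axis) of each of the 84 subunit genes, drawn in order of level within each complex, with a line at the median of the tested genes. Ndufb4b, Ndufa4l2, Cox4i2, Cox6b2 and Cox8b lie at 1.27 TPM or less, and all the others between 32.4 and 1952 TPM.

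From library to library the members varied little. Their median coefficient of variation, over the 6 libraries in CPM, was 11%, against 17.2% over all tested genes and 12.6% over the other genes with a mean of at least 100 CPM. By complex it ran from 9.49% for complex V to 13.4% for complex IV. The most even member was Ndufa9, an accessory subunit of complex I, at 2.92%, with 116, 111 and 110 CPM with PEEPA-P5 against 111, 118 and 116 CPM with vehicle. It was picked for this after the values were seen. The most uneven tested member was Cox7a1, at 112%.

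The comparison of the groups asks which of these messages differ between gastritic mice given PEEPA-P5 and those given vehicle. No member passed the threshold of an adjusted p under 0.05 in edgeR's quasi-likelihood test with Benjamini-Hochberg adjustment over all 13071 tested genes, and none of these genes did either, so the background of called genes was 0%. The smallest adjusted p over the table was 0.412. With p unadjusted and under 0.05 were 3 members higher with PEEPA-P5 (Uqcrh, Cox5a and Atp5e) and 1 lower (Cox7a1), which is 4.94% of the members. Over all tested genes the same rule took 5.92% higher and 6.14% lower, or 12.1% together, so the members' share lies below the background. With the replicate number as a block the count was 7, all higher (Cox7c, Cox5a, Ndufa5, Ndufc1, Atp5k, Ndufb7 and Uqcrh), against a background of 6.62% higher, and no member was called. DESeq2 called 0.834% of the genes to which it gave an adjusted p, and no member among them.

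NRF1, the ETS factor GABP and YY1 are known to act at promoters of nuclear subunit genes. A RefSeq promoter window (GRCm38.p6, 250 bases before to 50 after the start) was found for 69 of the 84 members, with 74 windows. The core letters GCGCANGCG of the NRF1 motif, on either strand, stood in 28.4% of these windows, against 10.4% of the 17178 windows of all genes of the table. The ETS core CCGGAAG stood in 23% of the member windows, against 13.9%, and the YY1 core AAGATGGC in 13.5%, against 3.52%. At least 1 of the 3 stood in 54.1% of the member windows, against 24.5% of all windows, and the motifs overlapped in 0 member windows. The members were not set against genes of like level here. A match is a run of letters and not a bound site.

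The 120 bases before the start are shown for the 4 members with an unadjusted p under 0.05, 5′ to 3′ on the gene's strand, with a motif match in capitals. Uqcrh (chr4:116075071-116075190, minus strand) and Atp5e (chr2:174464102-174464221, minus strand) hold the reverse complement of the ETS core. Cox5a (chr9:57521112-57521231, plus strand) and Cox7a1 (chr7:30184051-30184170, plus strand) hold none of the 3 motifs in this stretch.
Uqcrh: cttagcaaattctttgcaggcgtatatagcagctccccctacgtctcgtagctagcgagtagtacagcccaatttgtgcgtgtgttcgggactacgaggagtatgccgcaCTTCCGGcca
Atp5e: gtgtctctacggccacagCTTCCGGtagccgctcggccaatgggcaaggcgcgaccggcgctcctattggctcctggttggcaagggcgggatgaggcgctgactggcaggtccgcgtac
Cox5a: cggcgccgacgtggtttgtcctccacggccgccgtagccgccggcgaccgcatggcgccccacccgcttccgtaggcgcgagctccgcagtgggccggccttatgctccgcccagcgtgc
Cox7a1: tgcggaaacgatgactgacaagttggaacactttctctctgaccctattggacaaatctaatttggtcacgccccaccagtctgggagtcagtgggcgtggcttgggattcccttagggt

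The members' differences were small. The median log2 difference (PEEPA-P5 minus vehicle) was 0.077 over the 81 members, against -0.005 over all tested genes, with 52 positive and 29 negative. Within 0.25 of 0 on the log2 scale lay 72 members (88.9%), against 57.9% of all genes. Only 4 tested members had a mean under 10 CPM, where 36% of all genes lay this close. In the level classes from 10 CPM up, 61.9% to 70.7% of all genes did. The sign of the members' median depends on the scaling. With library sizes alone the split was 40 positive and 41 negative and the median of all genes moved to -0.087, and with log2 TPM it was 30 positive and 51 negative, with a members' median of -0.044 and an all-gene median of -0.077 (pseudocount 1). Leaving out vehicle 2 gave a members' median of -0.003. Leaving out vehicle 1 gave 7 members at an unadjusted p under 0.05, 5 higher and 2 lower, against a background of 15.6% in both directions. Leaving out vehicle 3 gave 0.167, with 13 members higher at an unadjusted p under 0.05, none lower and none called, against a background of 3.05% higher. Without both libraries numbered 3, the median was 0.128 and 10 were higher by that rule, against a background of 3.47%. The sign of the members' median thus did not hold across these scalings and libraries. The members' median lay above that of all tested genes in every setting run, by 0.006 (without vehicle 2) to 0.166 (without vehicle 3). This gap was not tested, and against genes of like level its direction differed by class, as given further on.

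**Figure D2:**
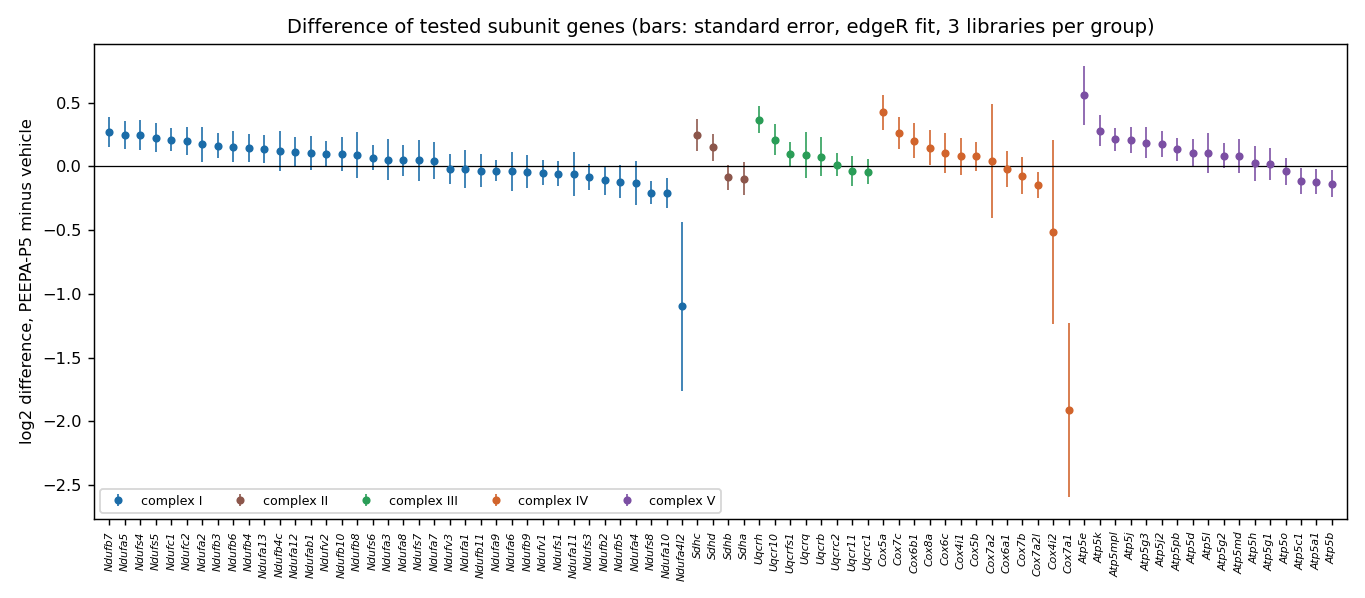
Log2 difference (PEEPA-P5 minus vehicle, vertical axis) of the tested subunit genes, 1 of which is not drawn, ordered by complex and then by size, with bars for the standard error of the edgeR fit on 3 libraries per group. Most points lie within 0.25 of 0, and Cox7a1 (-1.91) and Ndufa4l2 (-1.10) lie far below with wide bars.

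Across the libraries the 5 complexes kept nearly the same order. In CPM, vehicle 3 was the highest of the 6 libraries for 37 of the 81 tested members and PEEPA-P5 3 for 30, and vehicle 2 was the lowest for 48. The library size factors (TMM) were smallest in PEEPA-P5 3 (0.903) and vehicle 3 (0.954) and largest in vehicle 2 (1.1). The summed CPM of all tested genes ran likewise, at 1108000, 1049000 and 906100. As a share of all counts, the members took 1.44%, 1.58% and 1.54% in these libraries. The part of the scaling in these ranks was not tested. Summed over a complex, complex IV stood at 3475, 3277 and 3709 CPM with PEEPA-P5, against 3071, 2866 and 3721 CPM with vehicle. Complex V stood at 5959, 5976 and 6087 CPM, against 5785, 5826 and 6397 CPM with vehicle. In both, vehicle 3 was the highest library and the other 2 vehicle libraries the lowest, so the groups overlap. The same order held in complexes I and II, and in complex III vehicle 3 came just below PEEPA-P5 3.

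Among members whose groups do not overlap in CPM, 12 were higher with PEEPA-P5 and 1 was lower, against 9.75% higher and 10.7% lower over all tested genes. The 12 were Ndufa5, Ndufb3, Ndufb7, Ndufc1, Sdhc, Uqcrh, Cox5a, Atp5e, Atp5j, Atp5k, Atp5mpl and Atp5pb, and the 1 was Ndufs8. The counts move with the scaling. With library sizes alone, 12 members were higher and 7 lower, against 5.15% and 13.9% of all tested genes, and in TPM 10 were higher and 8 lower, against 4.04% and 12.8%.

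The catalytic core of complex I includes Ndufv1, which binds NADH and flavin, and iron-sulfur proteins such as Ndufs1, Ndufs7, Ndufs8 and Ndufv2. Ndufs8 (Entrez 225887) was at 74.7, 79.9 and 71.8 CPM with PEEPA-P5, against 85.8, 84.0 and 91.8 CPM with vehicle. Every PEEPA-P5 library lay under every vehicle library. Its log2 difference was -0.21, with an unadjusted p of 0.0522 and an adjusted p of 0.413 by edgeR. Ndufs1, by contrast, averaged 96.7 ± 3.74 CPM in PEEPA-P5 libraries, against 101 ± 9.35 CPM in vehicle libraries, and Ndufv1 105 ± 3.62 and 109 ± 9.90 CPM (SD, n = 3 each), and both overlap.

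The accessory subunits, which surround the core and are needed for its assembly and stability, make up most of complex I. Ndufb7 stood at 111, 106 and 123 CPM with PEEPA-P5, against 95.4, 82.2 and 105 CPM with vehicle. The log2 difference was 0.27 (SE 0.12) with an adjusted p of 0.417. The groups do not overlap, but PEEPA-P5 2 and vehicle 3 lie close together. Ndufc1 stood at 43.4, 39.9 and 42.8 CPM, against 36.3, 34.6 and 38.2 CPM with vehicle. This is a log2 difference of 0.21, with an adjusted p of 0.419. On the other side, Ndufa10 averaged 117 ± 4.85 CPM in PEEPA-P5 libraries, against 136 ± 18.3 CPM in vehicle libraries (SD, n = 3 each), with overlapping groups and an adjusted p of 0.483 by edgeR. Reads of Ndufb4 are uncertain, since 38.3% of the 31-base stretches of its transcripts also occur in Ndufb4c, and the authors' counting would have had to divide them. Of the stretches of Ndufc1, 7.37% also occur in other genes of the table. Over all 39 tested members of complex I the median log2 difference was 0.047, 37 lay within 0.25 of 0, and none reached an unadjusted p of 0.05.

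Ndufa4, long listed as a complex I subunit and since assigned to complex IV, had 151, 162 and 152 CPM with PEEPA-P5, against 134, 158 and 217 CPM with vehicle, where vehicle 3 alone is high. Its log2 difference was -0.13, and 0.086 without vehicle 3. Its relative Ndufa4l2 stood at 0.66, 0.29 and 0.13 CPM, against 0.46, 1.08 and 0.83 CPM with vehicle. Its log2 difference of -1.10 had a standard error of 0.66 and an adjusted p of 0.508, and it took at most 0.231% of the pair's TPM in any library.

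Complex II, succinate dehydrogenase, is also an enzyme of the tricarboxylic acid cycle. Its anchor Sdhc had 232, 230 and 262.5 CPM with PEEPA-P5, against 212, 173 and 226 CPM with vehicle, and the groups do not overlap (log2 difference 0.25, adjusted p 0.458 by edgeR). The flavoprotein Sdha had 226, 225 and 175 CPM with PEEPA-P5, against 211, 217 and 242.5 CPM with vehicle. Only PEEPA-P5 3 is low, and without it the log2 difference is 0.018 in place of -0.097. The iron-sulfur subunit Sdhb averaged 134 ± 7.56 CPM in PEEPA-P5 libraries, against 143 ± 11.6 CPM in vehicle libraries, and the second anchor Sdhd 184 ± 20.1 and 166 ± 7.32 CPM (SD, n = 3 each). All 4 lay within 0.25 of 0 on the log2 scale.

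In complex III, Uqcrh (Entrez 66576), the acidic hinge protein that helps cytochrome c dock, had 181, 176 and 188 CPM with PEEPA-P5, against 143, 125 and 154 CPM with vehicle. Every PEEPA-P5 library lay above every vehicle library, and the same was true in TPM, at 617, 618 and 557 with PEEPA-P5 against 515, 494 and 493 TPM with vehicle. Its promoter stretch holds the ETS core. The log2 difference was 0.37 (SE 0.10), with the smallest unadjusted p of all members (0.0099) and an adjusted p of 0.412 by edgeR. Over the alternatives its log2 difference ran from 0.25 in TPM to 0.44 without vehicle 3, and it was not called in any of them.

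The other members of complex III showed less. The core proteins Uqcrc1 and Uqcrc2 averaged 346.5 ± 18.5 and 269 ± 14.3 CPM with PEEPA-P5, against 357 ± 27.1 and 267 ± 9.11 CPM with vehicle (SD, n = 3 each). The Rieske iron-sulfur protein Uqcrfs1 averaged 149 ± 0.66 CPM in PEEPA-P5 libraries, against 139 ± 11.9 CPM in vehicle libraries. Uqcr10 had 183, 182 and 226 CPM, against 183.5, 155 and 173 CPM with vehicle, where only PEEPA-P5 3 stands clear, and the log2 difference of 0.21 is 0.10 without it. Uqcr11 averaged 107.5 ± 5.36 CPM in PEEPA-P5 libraries, against 110 ± 15.7 CPM in vehicle libraries.

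Complex IV holds 2 of the 4 members with an unadjusted p under 0.05, with opposite signs. Cox5a (Entrez 12858), a matrix-side subunit, had 343, 327 and 412 CPM with PEEPA-P5, against 276, 232 and 300 CPM with vehicle. The groups do not overlap, nor do they in TPM, at 774, 761 and 812 with PEEPA-P5, against 652, 608 and 633 TPM with vehicle. From the counts, the log2 difference was 0.42 (SE 0.14), with an unadjusted p of 0.0184 and an adjusted p of 0.412 by edgeR. Cox7c, a small membrane subunit, had 334, 294 and 355.5 CPM, against 278, 238.5 and 303 CPM with vehicle (log2 difference 0.26, adjusted p 0.441). Here PEEPA-P5 2 falls under vehicle 3, so the groups overlap.

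Several subunits of complex IV exist as a widely expressed and a tissue-restricted isoform. The 6 widely expressed ones, Cox4i1, Cox6a1, Cox6b1, Cox7a2, Cox7b and Cox8a, had a median log2 difference of 0.061, and none lay beyond 0.25. Cox4i1 averaged 422 ± 25.2 CPM in PEEPA-P5 libraries, against 400 ± 76.1 CPM in vehicle libraries, and Cox6a1 551 ± 37.0 and 559 ± 91.1 CPM (SD, n = 3 each). Of the restricted ones, Cox4i2, the lung-type isoform, took at most 0.238% of the TPM of its pair, and Cox6b2, known from testis, at most 0.193%. Cox8b, a heart and muscle isoform, had 1 count in all, in vehicle 3.

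Cox7a1 (Entrez 12865), the heart and muscle isoform of subunit 7a, was the exception, with a high value in 1 library. It had 3.01, 4.204 and 2.15 CPM with PEEPA-P5, against 3.97, 7.34 and 24.2 CPM with vehicle. Vehicle 3 is far above all others, and vehicle 1 lies below PEEPA-P5 2, so the groups overlap. In TPM, Cox7a1 made up 8.9%, 11.2% and 18.1% of the Cox7a1 and Cox7a2 pair with PEEPA-P5, against 13.1%, 22.7% and 55.6% with vehicle. These shares rest on effective lengths of 114 bases for Cox7a1 and 494 for Cox7a2, and so are uncertain. In CPM, Cox7a2 was above Cox7a1 in vehicle 3 too, at 84.9 against 24.2. The 18.1% in PEEPA-P5 3 goes with a low Cox7a2, at 41.3 CPM. The log2 difference was -1.91 (SE 0.68), with an unadjusted p of 0.0277 and an adjusted p of 0.412 by edgeR. Without vehicle 3 it was -0.85, with an adjusted p of 0.665, and without both libraries numbered 3 it was -0.64.

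The order of the libraries in Cox7a1 was also that of 2 genes of the parietal cell list, picked for this after the values were seen. The proton pump gene Atp4a had 4.999, 384 and 0.269 CPM with PEEPA-P5, against 366, 1620 and 3166 CPM with vehicle. Esrrg, a nuclear receptor of oxidative tissues, had 0.12, 8.0 and 0.067 CPM with PEEPA-P5, against 7.71, 35.8 and 107.5 CPM with vehicle. In all 3 genes the order, high to low, was vehicle 3, vehicle 2, PEEPA-P5 2, vehicle 1, PEEPA-P5 1 and PEEPA-P5 3. The list as a whole did not share it: its mean was higher in vehicle 1 than in PEEPA-P5 2, and its summed level, at 3062, 3821 and 3777 CPM with PEEPA-P5 against 3786, 5876 and 10310 CPM with vehicle, was lowest in PEEPA-P5 1. The mean of the chief cell genes, too, was lowest in PEEPA-P5 3 (-1.60) and highest in vehicle 3 (1.73), and that of exocrine pancreas genes was -3.74 in PEEPA-P5 3, against 3.58 in vehicle 3. Of the 15 parietal cell genes, 14 had a negative difference, 12 at an unadjusted p under 0.05 and none called. Over all tested genes 6.14% were lower by this rule. The 12 became 10 with the replicate block, 3 without vehicle 3, 2 without PEEPA-P5 3 and 2 without both. In either direction, these settings took 1788 of 13071, 759 of 13274, 1171 of 13362 and 1051 of 13219 tested genes. Of the striated muscle list, 10 genes were in the table and 4 were tested, of which 3 had a positive difference. Their summed level was 63.8, 39.6 and 83.6 CPM with PEEPA-P5, against 50.1, 34.4 and 37.9 CPM with vehicle. Most of it was the fast-fibre troponin gene Tnni2, at 59.3, 35.8 and 79.5 CPM with PEEPA-P5, against 45.6, 29.8 and 32.8 CPM with vehicle. Ckm was at most 0.292 CPM and Actc1 at most 0.162 CPM in any library. The part of any of these cell types in the Cox7a1 values was not tested.

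**Figure D3:**
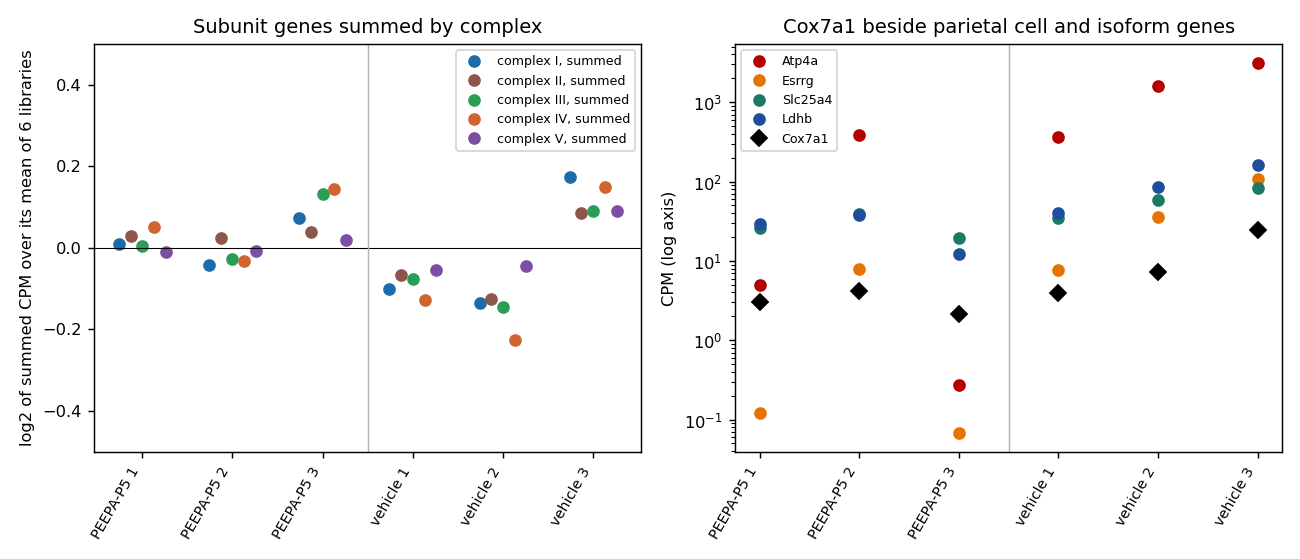
Left, the summed CPM of each complex in each library, as log2 over its mean of the 6 libraries: vehicle 3 is above 0 and vehicle 1 and 2 below 0 for all 5 complexes. Right, CPM on a log axis of Cox7a1 (diamonds), the parietal cell genes Atp4a and Esrrg and the isoform genes Slc25a4 and Ldhb: all 5 are highest in vehicle 3 and lowest in PEEPA-P5 3.

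Cox7a2, the widely expressed partner, varied in another way. It had 134, 145.5 and 41.3 CPM with PEEPA-P5, against 117, 109 and 84.9 CPM with vehicle, from 2224, 2491 and 614 counts against 2040, 2020 and 1325 counts. PEEPA-P5 3 is low on its own, and vehicle 3 is the lowest of its group. With a log2 difference of 0.044 (SE 0.45) it could not be placed on either side: without PEEPA-P5 3 the value was 0.43, with an unadjusted p of 0.0245 and an adjusted p of 0.556, and under the replicate block it was -0.13. Of the 31-base stretches of Cox7a2, 0% were shared with another gene of the table and 4.13% with a gene outside it. Cox7a2l, a related protein that joins complexes III and IV, and of which C57BL/6 mice are known to carry a shortened form, averaged 130 ± 5.38 CPM in PEEPA-P5 libraries, against 143.5 ± 12.9 CPM in vehicle libraries (SD, n = 3 each).

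**Figure D4:**
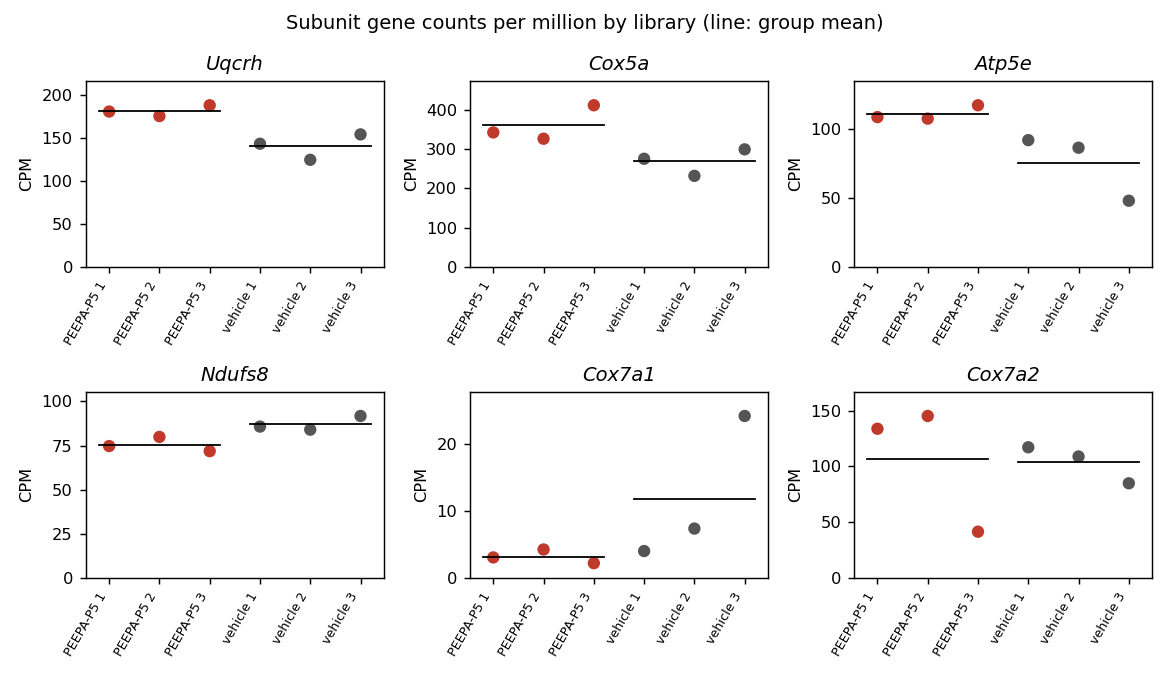
CPM of 6 subunit genes in each library (vertical axis from 0), PEEPA-P5 in red and vehicle in grey, with lines at the group means. Uqcrh, Cox5a and Atp5e are higher in all PEEPA-P5 libraries and Ndufs8 is lower, while Cox7a1 is high in vehicle 3 alone and Cox7a2 is lowest in PEEPA-P5 3.

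In complex V, the catalytic F1 head is built from the alpha, beta, gamma, delta and epsilon subunits. Their median log2 difference was -0.12, with 2 positive and 3 negative. The beta subunit Atp5b, with the highest counts of all members, averaged 1450 ± 74.0 CPM in PEEPA-P5 libraries, against 1594 ± 107 CPM in vehicle libraries. The alpha subunit Atp5a1 averaged 956 ± 33.5 and 1040 ± 47.2 CPM, and the gamma subunit Atp5c1 301 ± 4.38 and 327 ± 31.5 CPM (SD, n = 3 each). All 3 overlap between groups, with log2 differences of -0.14, -0.12 and -0.12 and adjusted p of 0.597, 0.608 and 0.631 by edgeR. The delta subunit Atp5d averaged 509 ± 35.4 CPM in PEEPA-P5 libraries, against 472 ± 29.6 CPM in vehicle libraries.

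The epsilon subunit Atp5e (Entrez 67126) stood apart in the F1 head. It had 109, 108 and 117 CPM with PEEPA-P5, against 92.1, 86.6 and 48.0 CPM with vehicle. The groups do not overlap, and vehicle 3, with 750 counts, lies far below vehicle 1 and 2 with 1601 and 1604 counts. This is a log2 difference of 0.56 (SE 0.23), with an unadjusted p of 0.0468 and an adjusted p of 0.412 by edgeR. None of its 31-base stretches occurred in another gene. Without vehicle 3 the difference was 0.32 with an unadjusted p of 0.0165, and without vehicle 1 it was 0.73. The unadjusted p stayed under 0.05 with DESeq2 and limma-voom. It did not with upper-quartile factors, library sizes alone, log2 TPM or the replicate block. Nor did it with at least 10 counts in every library, or when any PEEPA-P5 library was left out. In CPM, vehicle 3 was the lowest library for Atp5e and the highest for Cox7a1 and for 37 members in all.

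The membrane part of complex V carries a ring of c subunits, which 3 genes encode as the same mature protein with different import signals. Atp5g1 made up 37.5%, 37.2% and 37% of the summed TPM of the 3 genes with PEEPA-P5, against 38.9%, 37.5% and 40.7% with vehicle, and Atp5g3 32.9%, 34.2% and 35.1%, against 30.7%, 32.6% and 32.7%. Atp5g2 gave the remainder, 27.9% to 29.5% with PEEPA-P5 and 26.6% to 30.5% with vehicle. In Atp5g3 the lowest PEEPA-P5 share lies just above the highest vehicle share, in Atp5g1 the groups meet at 37.5%, and in Atp5g2 they overlap. The log2 differences were 0.018 for Atp5g1, 0.19 for Atp5g3 and 0.083 for Atp5g2, with overlapping CPM in all 3. The small difference of Atp5g1 was negative with library sizes alone and in log2 TPM, and that of Atp5g2 in log2 TPM. Other genes shared 13.9% of the 31-base stretches of Atp5g1, 40.2% of those of Atp5g2 and 0% of those of Atp5g3.

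The peripheral stalk, which holds the head still against the turning ring, had a median log2 difference of 0.079 over Atp5pb, Atp5h, Atp5j and Atp5o, and Atp5o shares 18.4% of its 31-base stretches with its neighbour Donson. Of these, Atp5j had 199.7, 201 and 207 CPM with PEEPA-P5, against 179, 156 and 190 CPM with vehicle, and Atp5pb averaged 294 ± 6.17 CPM in PEEPA-P5 libraries, against 268.5 ± 12.3 CPM in vehicle libraries (SD, n = 3 each). All 5 small membrane subunits, Atp5j2, Atp5k, Atp5l, Atp5md and Atp5mpl, had positive differences, with a median of 0.175 and none called, while in log2 TPM 4 of the 5 did and without vehicle 2 it was 3. Atp5mpl had 89.3, 97.9 and 101 CPM, against 83.5, 79.0 and 86.5 CPM with vehicle, and Atp5k 47.6, 51.6 and 62.4 CPM, against 43.9, 42.6 and 46.6 CPM with vehicle. In both, the lowest PEEPA-P5 library lies just above the highest vehicle library.

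Within the set, short transcripts had positive differences more often than the others, a description made after the values were seen. Among the 27 members with an effective length under 300 bases, 22 had a positive difference and the median was 0.142. With library sizes alone 18 of these 27 were positive, and in log2 TPM 16. From 300 to 600 bases 18 of 26 were positive with a median of 0.062, from 600 to 1200 bases 6 of 15 with a median of -0.073, and from 1200 to 2400 bases 6 of 10 with a median of 0.016, so the classes do not fall in a steady order. All 3 members of 2400 bases or more (Ndufs1, Ndufa11 and Sdha) were negative, with a median of -0.060, but 2 of them were positive without both libraries numbered 3. The place of Ndufa11, whose value is this median, is uncertain. Its effective length came out at 2401 bases, while its GENCODE transcripts hold only 1103 different 31-base stretches. Spearman's rho between length and difference was -0.42 over the 81 members, which share the same 6 libraries. All genes showed a like but weaker trend, with a rho of -0.12 over 12478 genes, a median of 0.114 under 300 bases, where 69% were positive, then 0.093, 0.057 and 0.018 in the next classes, and -0.022 at 2400 bases or more. The part of length in the members' differences was not tested.

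**Figure D5:**
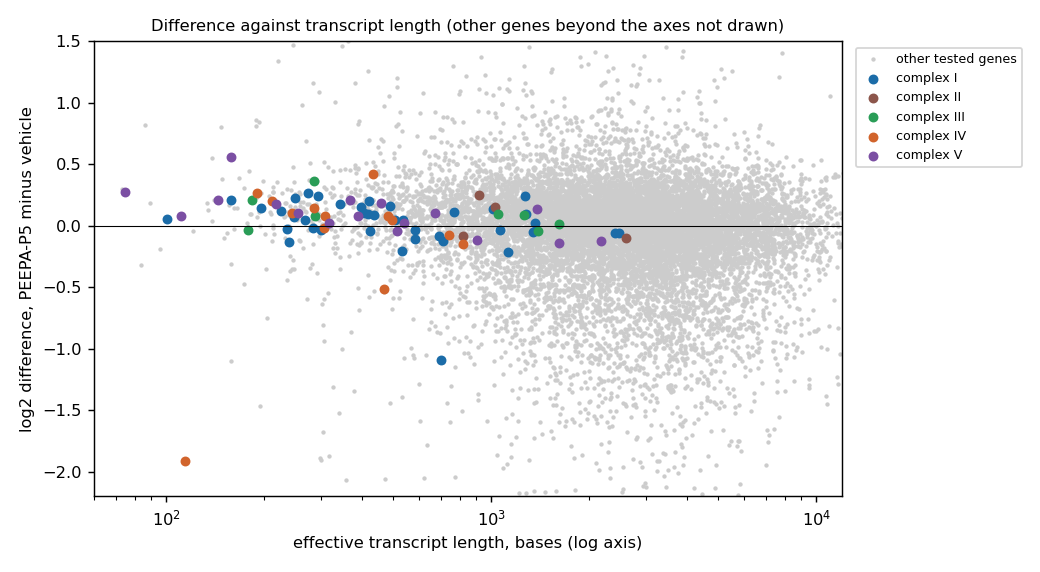
Log2 difference (PEEPA-P5 minus vehicle, vertical axis) against effective transcript length in bases (log axis) for the subunit genes in colour and the other tested genes in grey. Subunit genes under 300 bases lie mostly above 0, as do most other genes of that length, and the longer ones lie on both sides.

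Level gave a further point of comparison. Among genes of 100 to 300 CPM the members' median log2 difference was 0.077, against 0.133 over all genes of that level, and at 300 CPM and over it was 0.048, against 0.16. At 10 to 100 CPM it was 0.128, against 0.032. In the class of 100 to 300 CPM, 1 of 41 members had an unadjusted p under 0.05, against 17.2% of all its genes, and at 300 CPM and over 1 of 12 did, against 19%. The level classes, too, were looked at after the values were seen.

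The other genes of the pathway are given list by list. Over all tested genes, 5.92% were higher and 6.14% lower at an unadjusted p under 0.05. Of 49 tested assembly factors, 1 was higher at an unadjusted p under 0.05 and none lower, with a median log2 difference of 0.050 and none called. The one was Cox14, a factor for the mitochondrially encoded core of complex IV, at 32.5, 28.5 and 33.3 CPM with PEEPA-P5, against 27.4, 25.7 and 23.6 CPM with vehicle, and the groups do not overlap. Of 17 tricarboxylic acid cycle genes, 7 had a positive and 10 a negative difference, with a median of -0.018. At an unadjusted p under 0.05, none was higher and 1 was lower. The one was Idh3g, a regulatory subunit of isocitrate dehydrogenase, at 91.3, 91.0 and 83.2 CPM with PEEPA-P5, against 95.6, 113 and 126 CPM with vehicle. Citrate synthase, Cs, had 751, 739 and 838 CPM, against 714, 668 and 705 CPM with vehicle.

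Of 12 tested genes of cytochrome c and of exchange across the mitochondrial membranes, which include the member Atp5md, 3 were higher and 1 was lower at an unadjusted p under 0.05, and none was called. This is 33.3% of the list, against 12.1% of all tested genes. The 3 were the outer membrane pores Vdac1, Vdac2 and Vdac3, of which Vdac2 was named after its values were seen. Vdac1 had 326, 328 and 388 CPM with PEEPA-P5, against 282, 280 and 290 CPM with vehicle, and Vdac2 641, 656.5 and 895 CPM, against 607, 501 and 551 CPM. Without PEEPA-P5 3 the log2 difference of Vdac2 was 0.23 in place of 0.40. The lower one was Slc25a4, the heart and muscle ATP/ADP carrier, at 26.0, 38.6 and 19.3 CPM with PEEPA-P5, against 34.5, 58.9 and 83.0 CPM with vehicle (log2 difference -1.07, adjusted p 0.412 by edgeR). Without vehicle 3 it was -0.74, and without both libraries numbered 3 -0.53, with adjusted p of 0.665 and 0.668. Its widely expressed relative Slc25a5 had 674, 749 and 717 CPM, against 769, 835 and 906 CPM with vehicle.

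Of 18 glycolysis genes, 9 had a positive and 9 a negative difference, with a median of 0.018. At an unadjusted p under 0.05, 1 was higher (Pfkp) and 1 lower (Ldhb), and none was called. This is 11.1% of the list, against 12.1% of all tested genes. Ldhb, the lactate dehydrogenase subunit of oxidative tissues, had 28.9, 37.7 and 12.3 CPM with PEEPA-P5, against 40.7, 84.9 and 162.5 CPM with vehicle (log2 difference -1.87, adjusted p 0.412 by edgeR). Without vehicle 3 it was -1.25, and without both libraries numbered 3 -0.91, with adjusted p of 0.665 and 0.616. Ldha had 992.5, 994 and 1089 CPM, against 896, 783 and 919 CPM with vehicle. Slc25a4 and Ldhb, like Cox7a1, were highest in vehicle 3 and lowest in PEEPA-P5 3, as was the mean of the parietal cell list, and the part of those cells in these values was not tested.

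Of 22 tested regulators of mitochondrial biogenesis, 1 was higher and 2 were lower at an unadjusted p under 0.05, with a median of -0.061 and none called. This is 13.6% of the list, against 12.1% of all tested genes. Esrra, a nuclear receptor that drives many subunit genes, had 121, 105 and 139 CPM with PEEPA-P5, against 100.5, 85.3 and 92.6 CPM with vehicle. The log2 difference was 0.39 (SE 0.13) with an adjusted p of 0.412 by edgeR. The lower ones were its relatives Esrrg and Esrrb. The coactivator Ppargc1a had 4.64, 8.70 and 1.95 CPM, against 4.03, 6.26 and 20.0 CPM with vehicle. Tfam, which activates mitochondrial DNA, had 31.6, 28.7 and 25.1 CPM, against 28.9, 26.9 and 27.3 CPM. The activators Nrf1 (23.6, 20.2 and 20.4 CPM, against 19.4, 22.4 and 18.1 CPM) and Gabpa (33.0, 31.5 and 34.3 CPM, against 33.2, 37.6 and 30.2 CPM) overlapped between the groups as well.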

How the data were processed

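Illumina TruSeq libraries of total RNA were sequenced, per the labels' protocols, and no source used here states their strand. The submitters' processing notes name Bowtie2 2.2.5, RSEM 1.2.12 and the build mm9, without settings. Per the file headers, the authors deposited expected counts, FPKM and TPM for each gene and library. The deposited expected counts are estimated reads per gene, and 9.82% of them were not whole, so they were rounded. The authors' FPKM (reads scaled to library size and transcript length) served only to derive each gene's effective length, and their TPM (scaled to a fixed sum per library) to compare levels between genes. The authors' columns of group averages were not used.

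Counts were tested, PEEPA-P5 against vehicle without covariates, with edgeR 4.0.16 in R 4.3.3 (robust quasi-likelihood test, TMM factors, edgeR's expression filter, Benjamini-Hochberg adjustment at 0.05 over 13071 genes). CPM uses TMM-scaled library sizes. The script was tested on simulated data. DESeq2 1.42.0, limma-voom and limma-trend (limma 3.58.1), other scalings and filters, pseudocounts of 1 and 0.1 on TPM, the replicate block and each library left out were the alternatives. The tests count reads, not molecules, since the labels mention no molecular identifiers. No 2 libraries agreed within sampling noise (smallest chi-square per degree of freedom 13.3), and all 6 were kept as separate.

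The members and the 19 gene lists (291 memberships, 247 in the table) were chosen with earlier results of these data known. Genes named are the 2 members per direction and complex with the smallest unadjusted p among those reaching 1 CPM in the higher group, members with a fixed role (catalytic core, isoforms, F1 head, c ring), those with the highest and lowest level per complex and, of other lists, 2 genes per direction plus 6 regulators. The values of 1 named member are left out here. Members outside this rule (such as those not overlapping between groups) were named after their values were seen. The analyses by length and level, the motifs, the promoters shown and the setting without both libraries numbered 3 were also chosen after seeing the data. Shared 31-base stretches were counted from protein-coding GENCODE M21 transcripts.

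The labels number the libraries of each group 1 to 3 without saying what a number means. Same-numbered libraries deviated from their group means together (correlations of 0.237, 0.346 and 0.235), which meets the rule set for treating them as pairs, from the data and not the labels. Libraries of unlike number had correlations of -0.349 to 0.176. Deviations from the mean of so few libraries are tied to each other, so these values alone cannot show pairs. The test stayed without the block, as designed, so the p-values and standard errors given leave possible pairs out of account. The block fit is given for the members at an unadjusted p under 0.05, for the parietal cell genes and for Cox7a2. With the block, 51 members had a positive and 30 a negative difference.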

Additional observations from a re-analysis of the deposited data

How the results depend on the processing

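No member was called under any of the alternatives run. Over all genes, DESeq2 called 110, and leaving out 1 library gave 0 to 1 called genes (1 without vehicle 1). The number of members at an unadjusted p under 0.05 was 7 with the replicate block, 10 without both libraries numbered 3 and 3 to 13 when 1 library was left out, with 7 without vehicle 1 (against 15.6% of all genes in both directions) and 13 without vehicle 3, all higher (against 3.05% of all genes higher). The block changed no call. The members' median log2 difference was -0.044 with log2 TPM at either pseudocount and ran from -0.003 to 0.167 when 1 library was left out. The sign of the difference changed in 40 of the 81 members under at least 1 alternative: in 12 with library sizes alone, 22 with log2 TPM, 8 with upper-quartile factors, 14 without both libraries numbered 3 and 3 to 15 when 1 library was left out. Of the 28 members followed singly, 8 changed sign. Without both libraries numbered 3, Ndufa4 had 0.105, Sdha 0.081, Sdhb 0.010 and Uqcr11 0.046. When 1 library was left out, Sdha ran from -0.156 to 0.018, Uqcr11 from -0.114 to 0.083, Uqcrc1 from -0.078 to 0.022, Ndufa4 from -0.273 to 0.086, Atp5g1 from -0.074 to 0.126 and Cox7a2 from -0.240 to 0.433. Cox7a2 had -0.144 with limma-voom, -0.014 with library sizes alone, -0.252 and -0.255 with log2 TPM at pseudocounts of 1 and 0.1, and -0.129 with the replicate block. Atp5g1 had -0.031 with upper-quartile factors, -0.057 with library sizes alone, -0.006 with at least 10 counts in every library and -0.083 with log2 TPM at either pseudocount, where Atp5g2 had -0.032. The causes were not tested. Leaving out a library leaves 2 in its group, which limits these fits, and genes at few counts, such as Ndufa4l2 and Cox4i2, are limited by depth.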
